A study of Mus musculus with 7 samples.

Results

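The plasma-cell program genes described here are 10 genes, taken by name from the 24726 gene entries of each expression table: Prdm1, Xbp1, Sdc1, Slamf7, Igj, Mzb1, Tnfrsf17, Derl3, Fkbp11 and Creld2. All 10 were found, each as a single entry with no tag in its deposited name. They were followed in polyadenylated RNA of 5 leukaemias of the B lineage (B-ALL, acute lymphoblastic leukaemia) in C57BL/6 mice. The 3 Pax5-Etv6 B-ALL libraries carry the genotype Cdkn2ab+/-Pax5Etv6/+, that is, 1 Pax5 allele with the Pax5-Etv6 fusion and the loss of 1 copy of the Cdkn2a and Cdkn2b genes. They came from whole, unsorted lymph node used ex vivo. The 2 control B-ALL libraries carry Trp53-/- NrasG12D/+Retroviral-Myc, that is, no Trp53, an activated Nras allele and Myc from a retrovirus. They came from whole bone marrow kept briefly in culture. A strand-specific cDNA method is labelled for the Pax5-Etv6 libraries alone. Tissue, culture and cDNA method therefore follow the genotype and cannot be told apart from it. Age is not given. The labels do not say whether the libraries of a group come from different animals, and the p-values speak only of the spread among these 5.

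A plasma cell is the end stage of the B lineage and secretes antibody. Prdm1, also called Blimp-1, is the repressor that shuts down the B-cell program on the way there, and Pax5 is known to repress Prdm1, Xbp1 and Igj in B cells. Xbp1 is the factor of the unfolded protein response that enlarges the endoplasmic reticulum (ER), after the sensor Ire1, encoded by Ern1, has spliced its mRNA. Sdc1, Slamf7 and Tnfrsf17 are surface receptors by which plasma cells are recognised. Igj and Mzb1 serve antibody assembly, and Derl3, Fkbp11 and Creld2 are ER proteins of folding and disposal. B-ALL arises from B-cell precursors, which do not secrete antibody.

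The 2 kinds of leukaemia differed within the program, and the genes did not move as a block. Pax5-Etv6 B-ALL had more of both regulators, Prdm1 and Xbp1, and of the antibody-assembly genes Igj and Mzb1. Among the ER genes, Derl3 and Creld2 were higher and Fkbp11 was lower. Of the surface receptors, Slamf7 was lower, Sdc1 was not called and Tnfrsf17 was too low to be tested.

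Values are TPM (transcripts per 1000000), which are scaled by gene length and library. Differences were tested with limma on log2(TPM + 1) over all 11805 genes that reached 1 TPM in at least 2 libraries, and genes with a p under 0.05 after Benjamini-Hochberg adjustment were called. Of the 9 tested genes, 6 were called higher and 2 lower, and 1 was not called. Over all tested genes 21.9% were called higher and 29.7% lower, 51.7% in all. Of the calls in the program, 5 were at least 1 in size on the log2 scale, as were those of 36.7% of all tested genes. The median log2 fold change was 0.94 over the 9 genes and -0.10 over all tested genes. Prdm1 and Igj reached 1 TPM in the Pax5-Etv6 libraries alone and so entered the test through the group where they were high. The groups did not overlap in 8 of the 9 tested genes, against 72.2% of all tested genes. The 6 and 2 calls became 2 and 1 without control replicate 1, 3 and 1 without control replicate 2, and 4 and 1 without Pax5-Etv6 replicate 2. Whichever library was left out, the lower call that held was Slamf7.

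**Figure D1:**
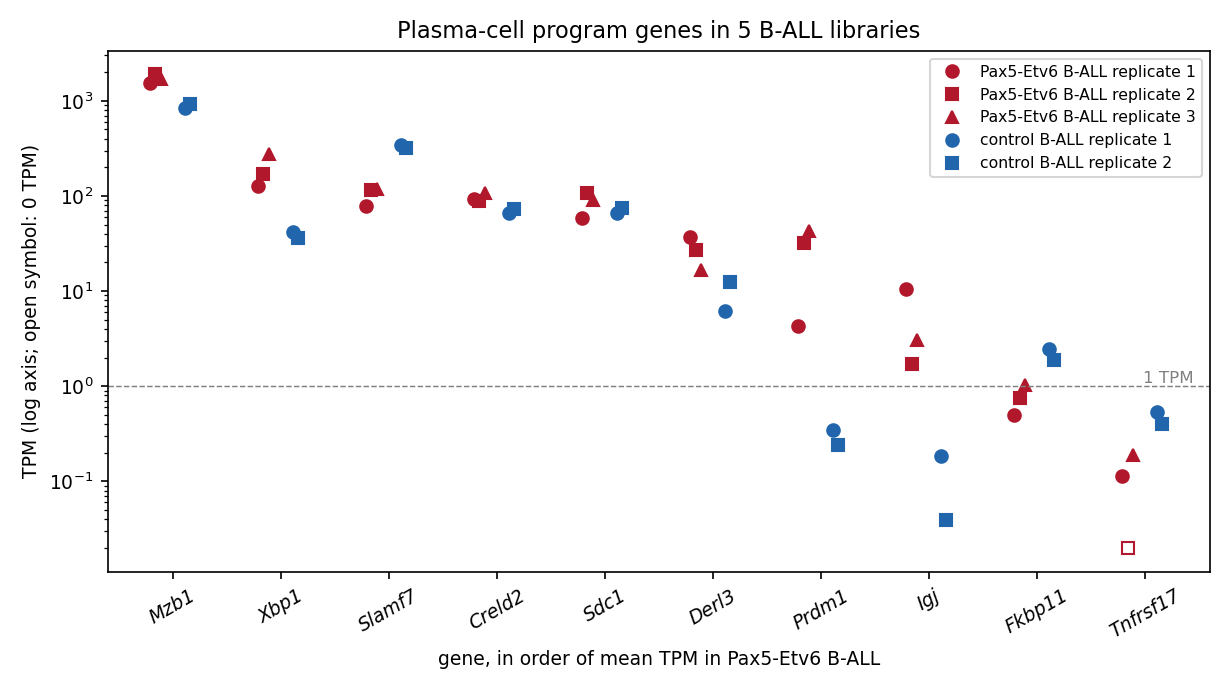
TPM of the 10 genes in each library, on a log axis, with red symbols for the 3 Pax5-Etv6 libraries and blue symbols for the 2 controls. Levels run from 1894 TPM for Mzb1 to 0 TPM for Tnfrsf17 in Pax5-Etv6 replicate 2 (open symbol), and only Sdc1 shows overlapping groups.

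Levels differed by more than 3 orders of magnitude among the 10 genes. In Pax5-Etv6 B-ALL the order by mean TPM was Mzb1, Xbp1, Slamf7, Creld2, Sdc1, Derl3, Prdm1, Igj, Fkbp11 and Tnfrsf17. The ranges of Slamf7, Creld2 and Sdc1 ran into one another. That of Prdm1 ran into those of Derl3 and Igj, which were apart from each other, and the other neighbours were apart. In control B-ALL the order was Mzb1, Slamf7, Sdc1, Creld2, Xbp1, Derl3, Fkbp11, Tnfrsf17, Prdm1 and Igj, and only Sdc1 and Creld2 overlapped. Prdm1 thus stood 7th of 10 in one group and 9th in the other, and Xbp1 2nd and 5th.

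Depth and purity set the frame for these values. Recovered reads ran from 20110584 to 50994548 per library. Markers of the B lineage (10 genes) summed to between 6799 and 10570 TPM in the Pax5-Etv6 libraries and between 2926 and 3716 TPM in the controls. Markers of some other cells, though not of dendritic cells, were also higher in sum in the whole lymph nodes. The 12 macrophage markers summed to 178 to 601 against 26.0 to 72.7 TPM, and 9 neutrophil markers to 35.1 to 266 against 0.586 to 0.622 TPM. T-cell markers are given with Prdm1. The 9 natural killer markers summed to 8.68 to 9.53 against 0.448 to 0.871 TPM, mostly Gzma, at 4.63, 7.90 and 7.65 TPM against 0 in both controls, while Ncr1 stood at most at 0.0521 TPM. The 9 plasmacytoid dendritic-cell markers summed to 76.4 to 187 TPM and to 146 to 195 TPM. Of these, 4 were tested, with 1 called higher and 1 lower. The higher one, Pacsin1, had 10.6, 4.63 and 2.31 TPM against 0.0109 and 0.0185 TPM. The lower one, Cox6a2, under a name with an overlap tag, had 1.26, 1.67 and 0.463 TPM against 16.8 and 35.6 TPM. Bst2 had 110, 49.4 and 104 TPM against 122 and 142 TPM and was not called, and Siglech had at most 0.322 TPM. The 8 conventional dendritic-cell markers summed to 40.1 to 155 TPM against 39.8 to 76.1 TPM. Of the genes of the genotypes, Trp53 had 477 ± 19.8 TPM in Pax5-Etv6 B-ALL and 15.9 ± 6.52 TPM in the controls, and Etv6 39.0 ± 2.77 and 12.2 ± 0.171 TPM. TPM per gene do not separate normal Etv6 from the Pax5-Etv6 fusion. In bulk RNA, fewer cells of a type and less RNA per cell cannot be told apart.

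Prdm1 was the gene of the program with the largest difference. It stood at 4.27, 32.1 and 43.3 TPM in Pax5-Etv6 replicates 1, 2 and 3, and at 0.346 and 0.238 TPM in control replicates 1 and 2. Both controls were below every Pax5-Etv6 library, and replicate 1 was the low one of its group, with a 10.1-fold spread within the 3 libraries. The means were 26.6 ± 20.1 TPM (SD, n = 3) and 0.292 ± 0.0760 TPM (SD, n = 2), a ratio of 90.9. On the log2(TPM + 1) scale, which compresses low values, the difference was 3.94 ± 0.88 (SE, limma adjusted p = 0.0114). The difference ran from 2.27 with a pseudocount of 5 TPM to 6.06 with voom on recovered reads. The call was lost without control replicate 1 (adjusted p = 0.109) or 2 (0.0958) and with voom (0.0598). Without Pax5-Etv6 replicate 1 the difference was 4.89 ± 0.29 (adjusted p = 0.000297).

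The sum of 10 T-cell markers was 12.5, 136 and 172 TPM in Pax5-Etv6 replicates 1, 2 and 3, and 5.61 and 8.41 TPM in the controls. Of this, the adaptor Lat alone, under a name with an overlap tag, gave 7.56, 125 and 160 TPM and was not called (limma adjusted p = 0.0602). The order of the sum, like that of Prdm1, is thus mostly that of Lat, and the markers did not follow Prdm1 as a class. Cd6 went the other way, with 0.365, 0.109 and 0.402 TPM against 0.586 and 2.75 TPM. Cd3g was highest in replicate 1, at 0.632 TPM. Of the 10, 3 were tested and 2, Cd4 and Cd5, were called higher, where 21.9% of all tested genes were. Both reached 1 TPM in Pax5-Etv6 libraries alone and so entered the test through the group where they were high. Cd4 had 0.805, 4.27 and 1.70 TPM against 0 in both controls, and Cd5 had 2.10, 4.52 and 5.94 TPM, while the controls had 0.232 and 0.592 TPM. Neither was called without control replicate 1 (limma adjusted p = 0.163 and 0.102) or 2 (0.141 and 0.0531), nor was Cd4 without Pax5-Etv6 replicate 3 (0.0701), with a pseudocount of 5 TPM (0.0815) or with no filter (0.0580). Cd3d, Cd3e and Cd3g were below 1 TPM in every library, and Cd3e, Cd8b1 and Trat1 were at 0 in both controls. The part of T cells in the Prdm1 values was not tested.

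Xbp1 was at a moderate level in every library. It had 127, 170 and 276 TPM in Pax5-Etv6 replicates 1, 2 and 3 and 41.9 and 36.2 TPM in the controls. The lowest Pax5-Etv6 library lay well above both controls, and replicate 1 was again the lowest of its group. The means of 191 ± 77.0 TPM and 39.1 ± 4.06 TPM differed 4.89-fold, a log2 fold change of 2.19 ± 0.32 (limma adjusted p = 0.00266). That call held in all 16 alternative settings, with adjusted p from 0.00113 to 0.0395. TPM per gene do not separate spliced from unspliced Xbp1 mRNA.

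Profiles close to the 2 regulators were ranked by the distance between centred log2(TPM + 1) values over the 5 libraries. For Prdm1 the nearest were Thy1 (distance 0.298), Adamts7 (0.326) and Scn4b (0.591). Thy1, a surface glycoprotein of T cells and other cells, had 2.50, 23.1 and 32.7 TPM against 0.139 and 0.0471 TPM. A low replicate 1 in Thy1 follows from its choice as the profile nearest to Prdm1. For Xbp1 they were Mprip (0.257), Spred2 (0.351) and Ptpre (0.358), with Mprip and Ptpre under names that carry an overlap tag. These distances describe 5 libraries that fall into 2 groups.

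Of the 3 surface receptors, 1 was lower, 1 was not called and 1 was not tested. Slamf7, a receptor of the SLAM family, stood at 77.9, 117 and 118 TPM in Pax5-Etv6 B-ALL and at 342 and 323 TPM in the controls. Every Pax5-Etv6 library was below both controls. Its mean was 3.19-fold higher in the controls (104 ± 22.9 against 332 ± 13.6 TPM), and it fell by 1.69 on the log2 scale in Pax5-Etv6 B-ALL (SE 0.21, limma adjusted p = 0.00173). The call held in all 16 alternatives, with adjusted p from 0.00114 to 0.0300.

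Sdc1 encodes syndecan-1, the heparan-sulphate proteoglycan CD138 that marks plasma cells. It had 58.2, 108 and 91.5 TPM in Pax5-Etv6 B-ALL and 65.4 and 75.3 TPM in the controls. Replicate 1 lay below both controls and the other two libraries above them, so the groups overlapped. The log2 fold change of 0.24 ± 0.27 was not called (limma adjusted p = 0.484), nor was it in any of the 16 alternatives, where the value ran from 0.055 to 0.49. A call that is missed does not show equal levels.

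Tnfrsf17 encodes BCMA, a receptor for the survival factors BAFF and APRIL. It had 0.114, 0 and 0.188 TPM in Pax5-Etv6 B-ALL and 0.533 and 0.403 TPM in the controls, and did not reach the 1 TPM that testing required. These values are 1, 0 and 2 reads against 9 and 4 reads, recovered as lower bounds. A count of 0 in replicate 2 allows up to 0.407 TPM, the worth of 3 reads. Relative to total recovered reads the gene was 3.99-fold higher in the controls, with a 95% exact interval from 1.10 to 21.9 that covers counting error only. With no filter on low values the difference was -0.42 (adjusted p = 0.0282). At this depth the gene was near the limit of detection in all 5 libraries.

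**Figure D2:**
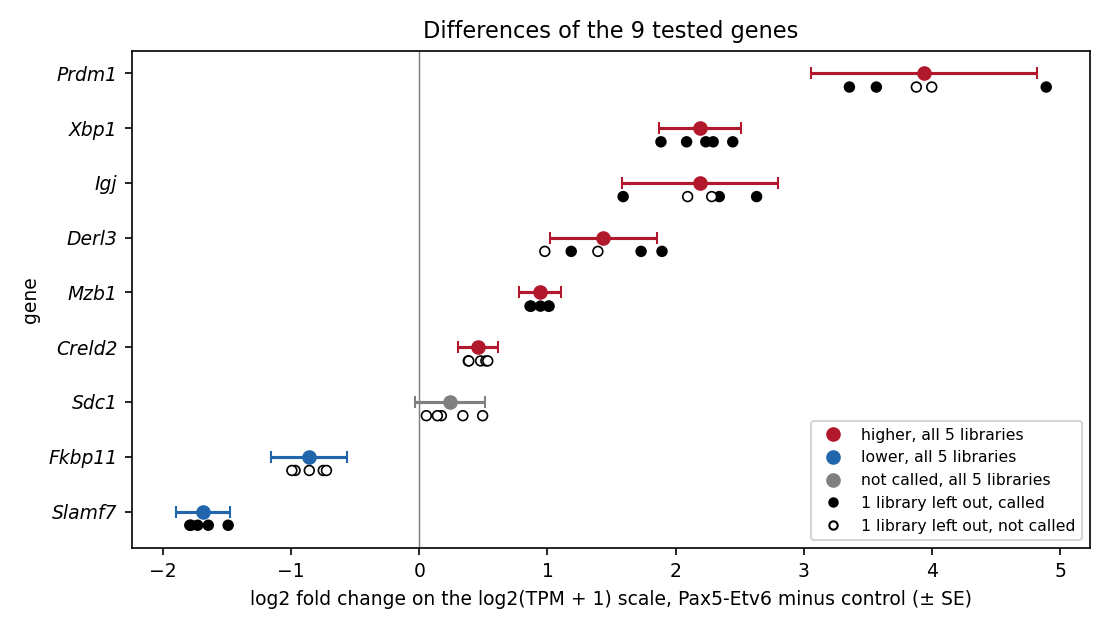
Log2 fold changes of the 9 tested genes with their SE (large points) and, under each, the values when 1 of the 5 libraries is left out (small points, filled where the call held). Xbp1, Mzb1 and Slamf7 were called in every such fit, and Fkbp11, Creld2 and Sdc1 in none.

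The antibody-assembly genes were both higher in Pax5-Etv6 B-ALL, at very different levels. Mzb1, a co-chaperone of Hsp90b1 for immunoglobulin heavy chains, had 1543, 1894 and 1692 TPM in Pax5-Etv6 B-ALL, and the controls had 846 and 930 TPM. It was the most abundant gene of the program in all 5 libraries, and its groups were well apart. Its means of 1710 ± 176 and 888 ± 59.3 TPM gave a log2 fold change of 0.94 ± 0.16 (limma adjusted p = 0.00478), called in all 16 alternatives (adjusted p from 0.00293 to 0.0407). Its partner Hsp90b1, also called Grp94, was lower, with 997 and 700 TPM in the controls and 329, 293 and 336 TPM in Pax5-Etv6 B-ALL (-1.39 ± 0.19, adjusted p = 0.00211).

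Igj, now named Jchain, encodes the chain that joins IgM and IgA into polymers. It had 10.5, 1.73 and 3.08 TPM against 0.183 and 0.0389 TPM. Here replicate 1 was the high library of its group, by 6.10-fold over replicate 2, the reverse of its place for Prdm1 and Xbp1. Neutrophil markers also peaked in replicate 1, at 266 TPM in sum, against 35.1 and 149 TPM in replicates 2 and 3, and other markers that peaked there are given with the spread within the group. The controls rest on 8 and 1 recovered reads, and over each group 358 reads stood against 9. Relative to the groups' total reads this was a ratio of 43.2, with a 95% exact interval from 22.5 to 95.1 for counting error. The log2 fold change was 2.19 ± 0.61 (limma adjusted p = 0.0243). It was not called without control replicate 1 or 2 (adjusted p = 0.142 in both), with a pseudocount of 5 TPM (0.89, adjusted p = 0.0748), with no filter (0.0584) or under quantile normalization (0.0541).

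Of 13 listed antibody constant-region symbols 4 matched an entry and 3 were tested, with 1 higher and 2 not called (median -0.37). Igkc, the kappa constant region, had 9256, 2221 and 3342 TPM against 6072 and 4676 TPM and was not called (limma adjusted p = 0.603). The controls lay between replicate 1, the high library, and the other two, and without replicate 1 Igkc was called lower (-0.97, adjusted p = 0.0253). The lambda gene Iglc2 had 51.9, 35.6 and 23.9 TPM, while the controls had 3.65 and 7.01 TPM (log2 fold change 2.58 ± 0.40, adjusted p = 0.00312). Iglc3 spread from 136 to 1414 TPM between the controls, around the 186 to 563 TPM of the other group. Ighg2c, of switched antibody, was at 0 in 4 libraries and at 0.0629 TPM in Pax5-Etv6 replicate 3. It was the only heavy-chain constant region among the 4 that matched. Other listed heavy-chain classes, switched or not, were therefore not measured.

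The 3 ER proteins of the program split. They are known in part as targets of Xbp1 and Atf6, whose sites include the ER stress response element (ERSE), CCAAT and CCACG with any 9 bases between them. RefSeq promoter windows of 300 bases, from 250 before to 50 after a start site on GRCm38.p6, were searched on both strands for all members but Mzb1, which was not matched to a window. Derl3 and Creld2 each held 1 ERSE, and no other member did, while 0.119% of all 32851 windows held one. The 250 upstream bases of these promoters are shown 5′ to 3′ along the gene, with the ERSE in capitals. It lies on the strand opposite to the gene and so reads as its reverse complement, CGTGG first. Fkbp11 is shown beside them because it moved the other way. Of its 2 windows, neither has an ERSE, and the one with CCACG is given, with the reverse complement CGTGG in capitals.
Derl3, chr10:75893148-75893397, plus strand: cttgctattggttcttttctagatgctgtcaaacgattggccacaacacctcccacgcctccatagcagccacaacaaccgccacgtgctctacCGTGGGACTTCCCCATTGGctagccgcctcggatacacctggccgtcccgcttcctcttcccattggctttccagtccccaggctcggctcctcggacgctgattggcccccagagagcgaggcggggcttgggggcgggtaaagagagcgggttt
Creld2, chr15:88819396-88819645, plus strand: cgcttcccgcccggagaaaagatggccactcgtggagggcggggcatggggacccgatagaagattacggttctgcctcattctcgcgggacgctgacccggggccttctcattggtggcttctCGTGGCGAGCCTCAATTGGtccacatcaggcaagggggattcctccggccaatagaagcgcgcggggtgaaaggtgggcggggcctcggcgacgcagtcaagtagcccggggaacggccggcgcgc
Fkbp11, chr15:98727628-98727877, minus strand: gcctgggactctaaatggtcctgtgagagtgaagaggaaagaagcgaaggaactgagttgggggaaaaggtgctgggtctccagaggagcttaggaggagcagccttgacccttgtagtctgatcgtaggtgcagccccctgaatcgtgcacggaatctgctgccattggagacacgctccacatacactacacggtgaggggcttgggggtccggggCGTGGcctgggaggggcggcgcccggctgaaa

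The ERSE lay at -156 to -138 from the start site of Derl3 and at -126 to -108 of Creld2. The shorter CCACG occurred in 32.8% of all windows and ACGTG in 19.6%. Derl3 held 3 and 2 of these, of which 1 CCACG is part of the ERSE and both ACGTG matches overlap a CCACG. Creld2 held 2 CCACG, 1 of them in the ERSE, and no ACGTG. Fkbp11 held 2 CCACG, at -32 to -28 and at 23 to 27, and 3 ACGTG, all after the start site. Prdm1 had 2 CCACG and Sdc1 had 1, Slamf7 and Igj each had 1 ACGTG, and Xbp1 and Tnfrsf17 had neither. The ETS core GGAA was in every member's window that was searched and in 96.0% of all windows. A match is a string of letters, and whether a factor bound there was not analysed here.

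Derl3, which takes part in the export of misfolded proteins from the ER, had 36.6, 27.2 and 16.7 TPM in Pax5-Etv6 B-ALL and 6.15 and 12.5 TPM in the controls. Replicate 1 was the highest and the lowest Pax5-Etv6 library still exceeded both controls. The log2 fold change was 1.44 ± 0.42 (limma adjusted p = 0.0276), and it was not called without control replicate 1 (0.98, adjusted p = 0.204), without Pax5-Etv6 replicate 2 (0.0632) or with no filter (0.0638). Creld2, a calcium-binding ER protein induced by ER stress, had 93.5, 88.2 and 107 TPM against 65.9 and 73.1 TPM. The groups were apart but close, and the 1.38-fold difference in means was 0.46 ± 0.16 on the log2 scale (adjusted p = 0.0464). That call was lost on leaving out any 1 library (adjusted p from 0.0580 without control replicate 2 to 0.162 without Pax5-Etv6 replicate 3), with no trend (0.0833) and with robust empirical Bayes (0.0512).

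Fkbp11, an ER prolyl isomerase abundant in secretory cells, had 0.502, 0.748 and 1.04 TPM in Pax5-Etv6 B-ALL and 2.48 and 1.89 TPM in the controls. All 5 values were low, from 4 to 38 recovered reads, and both controls exceeded the other libraries. It fell by 0.86 on the log2 scale (SE 0.30, limma adjusted p = 0.0495), a call lost in 10 of 15 alternatives. These include leaving out any 1 library, with adjusted p from 0.0561 without control replicate 2 to 0.126 without control replicate 1. Relative to total recovered reads it was 2.67-fold higher in the controls, with a 95% exact interval from 1.56 to 4.76 for counting error.

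Of all tested genes, 14 held an ERSE in a RefSeq window, among 9192 that matched one. Of the 14, 4 were called higher, 4 lower and 6 were not called, beside 2039 higher and 2775 lower of the 9192. The median log2 fold change of the 14 was -0.03, and that of the 9192 was -0.10. Without Derl3 and Creld2, 2 of the other 12 were higher and 4 lower, with a median of -0.28. Higher besides Derl3 and Creld2 were the adenylate cyclase Adcy3 (1.15 ± 0.29, limma adjusted p = 0.0170) and the ER mannosyltransferase Alg12 (0.95 ± 0.26, adjusted p = 0.0235). Neither was called without control replicate 1 (0.0827 and 0.124) or Pax5-Etv6 replicate 3 (0.0507 and 0.0752), and Alg12 was also not called without Pax5-Etv6 replicate 2 (0.0899). Lower were the chaperones Hsp90b1 (-1.39 ± 0.19, adjusted p = 0.00211), Canx (-0.97 ± 0.19, adjusted p = 0.00756) and Hspa5 (-0.65 ± 0.13, adjusted p = 0.00801), and the RNA-binding protein gene Hnrnpa3 (-1.54 ± 0.28, adjusted p = 0.00566).

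**Figure D3:**
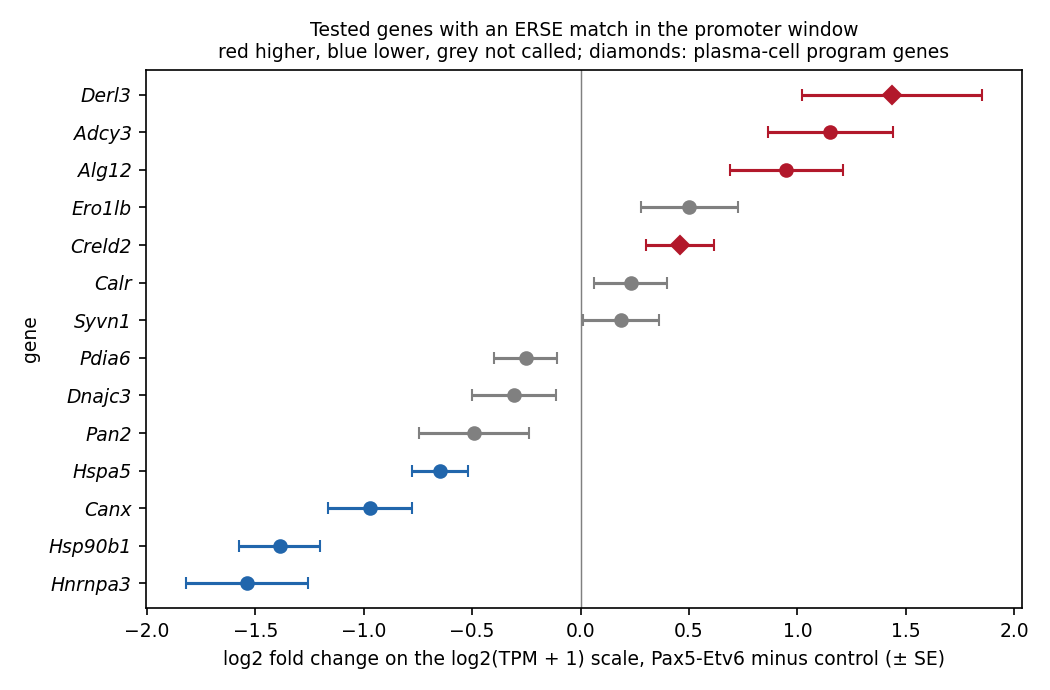
Log2 fold changes with SE of the 14 tested genes that hold an ERSE in a promoter window, with diamonds for Derl3 and Creld2. Derl3 is highest at 1.44, and Hspa5, Canx, Hsp90b1 and Hnrnpa3 lie below 0 at -0.65 to -1.54.

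Within Pax5-Etv6 B-ALL, the 3 libraries did not rank alike over the program. Replicate 1 was the lowest of the 3 in 6 of 10 genes and the highest in 2, Igj and Derl3. Replicate 3 was the highest in 6 genes. Over all tested genes, the second principal component (10.4% of the variance) had replicate 1 at 49.9 and the other two at -23.1 and -23.2. Marker sums differed between the same libraries. In replicate 1, neutrophil sums were highest, as given with Igj, and so were erythroid sums (75.7, 13.1 and 24.3 TPM) and those of plasmacytoid (187, 76.4 and 116 TPM) and conventional dendritic cells (155, 46.2 and 40.1 TPM). The B-lineage markers split. Ms4a1, the mature B-cell antigen CD20, had 225, 20.6 and 6.60 TPM and Cd22 had 184, 38.1 and 22.1 TPM. The surrogate light chain genes of B-cell precursors were lowest in replicate 1, with Vpreb1 at 98.2, 1173 and 1079 TPM and Igll1 at 202, 1715 and 1709 TPM. Macrophage markers summed to 178, 601 and 218 TPM, and stromal, endothelial and epithelial markers to 320, 1004 and 495 TPM. Of the latter, Pecam1 gave 233, 222 and 293 TPM and Col1a1 gave 45.6, 405 and 85.2 TPM. The endothelial marker Cdh5 had 0.533, 8.45 and 3.14 TPM, against 2.26 and 3.87 TPM in the controls. Krt8, Krt18 and Cdh1 were below 1 TPM in every library. The part of any of these cells in Igj, Derl3 or other genes of the program was not tested.

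**Figure D4:**
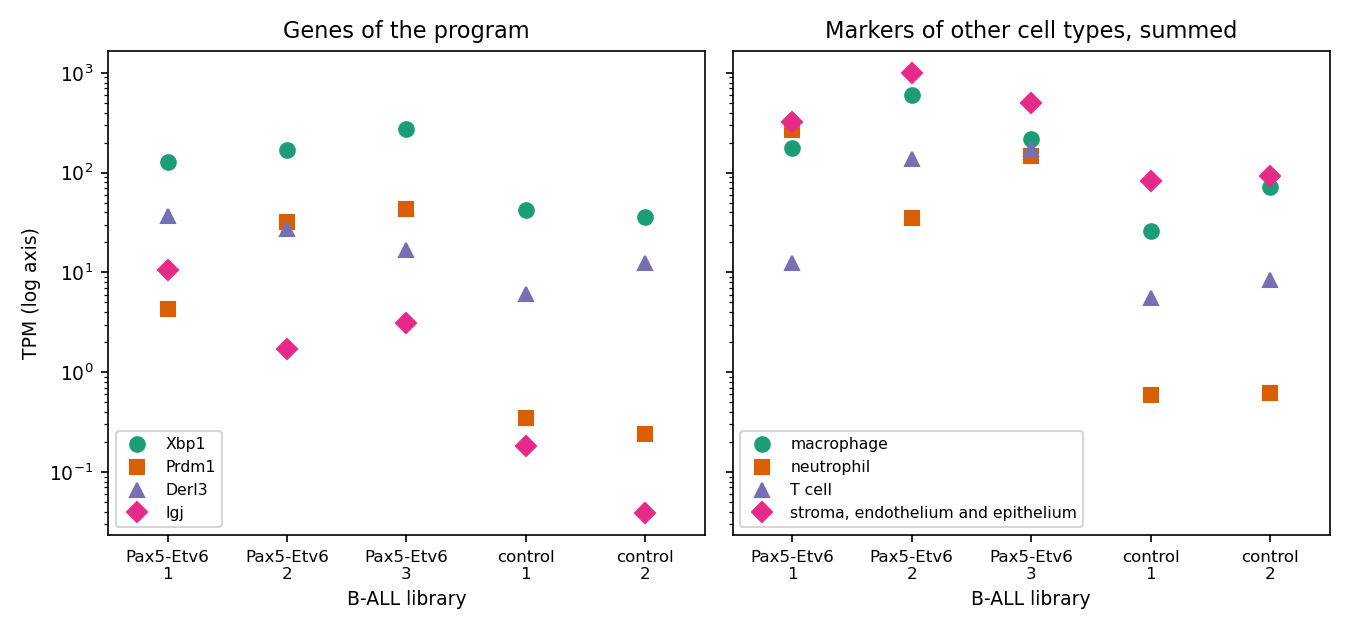
TPM on a log axis in each library for 4 genes of the program (left) and the summed TPM of markers of 4 other groups of cells (right). Prdm1 is lowest and Igj and Derl3 are highest in Pax5-Etv6 replicate 1, while macrophage and stromal sums peak in replicate 2.

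Transcription factors that hold the B-cell state were measured beside Prdm1, which is known to repress several of them. Of 16 such factors, 6 were higher, 2 lower and 8 not called (median log2 fold change 0.41). Over all tested genes 21.9% were higher and 29.7% lower, the shares to set beside the counts of each list. Bcl6, the germinal-centre repressor that opposes Prdm1, had 19.6, 30.7 and 28.2 TPM against 3.91 and 4.35 TPM (2.38 ± 0.27, limma adjusted p = 0.00129). The groups were far apart, and Bcl6 was higher in the same libraries as Prdm1. Foxo1 was higher as well (1.63 ± 0.17, adjusted p = 0.001), and so was Bcl11a (1.56 ± 0.30, adjusted p = 0.007), though not without control replicate 1 (0.0767). Bach2, which restrains plasma-cell differentiation and whose deposited name carries an overlap tag, fell by 1.43 (adjusted p = 0.00391), from 138 and 181 TPM in the controls to 44.9, 62.0 and 69.9 TPM. Mef2c fell by 0.95 (adjusted p = 0.042), a call lost in 9 alternatives, among them without control replicate 1 (0.249) and Pax5-Etv6 replicates 2 (0.0986) and 3 (0.106). The Pax5 entry ran from 200.2 to 251.8 TPM over all 5 libraries. TPM per gene do not separate normal Pax5 from the Pax5-Etv6 fusion, so this does not show equal levels of normal Pax5.

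Of 26 other tested genes of plasma cells, 7 were higher, 11 lower and 8 not called (median -0.02). The lists share genes, so their counts are not independent. Edem1, Txndc5, Txndc11, Sec11c, Lman1 and Tram2, all lower, are counted again with the chaperone or export genes below. Tnfrsf13b and Tnfrsf13c, both higher, are counted again in the BAFF and APRIL system. The total of called list genes given at the end counts each gene once. The shares over all tested genes were 21.9% higher and 29.7% lower. Irf4, the factor required beside Prdm1, had 102, 89.4 and 157 TPM against 252 and 192 TPM and was lower (-0.96 ± 0.27, limma adjusted p = 0.0249). This call was lost without control replicate 1 (0.190) or 2 (0.0710), without Pax5-Etv6 replicate 2 (0.0599) and with no filter (0.0554). Ell2, the elongation factor that directs secretory immunoglobulin mRNA processing, had 0.127, 0.302 and 0 TPM in Pax5-Etv6 B-ALL and 17.4 and 16.6 TPM in the controls. It was almost without reads in the first group (-3.99 ± 0.28, adjusted p = 0.000446) and entered the test through the controls alone. Its partner Eaf2 fell by 2.14 (adjusted p = 0.00165). The adhesion receptor Cd44 had 176 and 117 TPM in the controls and 1.03, 1.46 and 0.675 TPM in Pax5-Etv6 B-ALL (-6.15 ± 0.30, limma adjusted p = 0.00037). In the other direction, the cyclin Ccnd2 rose by 4.84 ± 0.65 (adjusted p = 0.00207) and the BAFF and APRIL receptor Tnfrsf13b, or TACI, by 2.30 ± 0.26 (adjusted p = 0.00122). For the adaptor Lax1 the rise was 2.33 ± 0.43 (adjusted p = 0.00585), and leaving out control replicate 1 (0.0585) or 2 (0.0666) ended the call.

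In the BAFF and APRIL system, to which Tnfrsf17 belongs, 4 of 6 tested genes were higher and 2 lower (median 0.62). Of all tested genes 21.9% were higher and 29.7% lower. Tnfrsf13b had 303, 225 and 203 TPM against 38.2 and 60.5 TPM, while Tnfrsf17 was near the limit of detection. Tnfrsf13c, the BAFF receptor, was higher (1.46 ± 0.40, adjusted p = 0.0220), but not without control replicate 1 (0.148) or with no filter (0.0544). Traf2 was higher by 0.64 (adjusted p = 0.0278), and was not called without control replicate 1 (0.0780) or any 1 Pax5-Etv6 library (0.0565 to 0.0836). The adaptor Traf3, which restrains this signalling, fell by 1.44 (limma adjusted p = 0.00890), but was not called without control replicate 1 (0.0680) or 2 (0.0695). Traf6 fell by 0.89 (adjusted p = 0.0125), and was not called without control replicate 1 (0.0738) or Pax5-Etv6 replicate 2 (0.0551).

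Of 7 tested genes of the SLAM family and its adaptors, 2 were lower and 5 not called (median 0.01), beside 29.7% lower overall tested genes. Cd48 fell by 1.31 (adjusted p = 0.00107), from 115 and 113 TPM to 43.9, 46.6 and 45.4 TPM, and Slamf9 fell by 2.57 (adjusted p = 0.00689). Of 8 tested syndecan, glypican and heparan-sulphate genes, 3 were higher and 5 not called (median 0.38), where 21.9% of all tested genes were higher. Sdc3 had 4.79, 22.5 and 5.40 TPM against 0.367 and 1.45 TPM (2.38 ± 0.66, adjusted p = 0.0242), lost without control replicate 1 (0.199) or 2 (0.0866), with a pseudocount of 5 TPM (0.0602) and with no filter (0.0665). Its high library, replicate 2, is also the one with the most stromal and macrophage marker RNA, whose part was not tested. The heparan-sulphate polymerase gene Ext1 (1.65 ± 0.40, adjusted p = 0.0152) was not called without control replicate 1 (0.130) or 2 (0.0822). Ndst2 (0.85 ± 0.27, adjusted p = 0.0370) was not called without either control (0.190 and 0.0571), without Pax5-Etv6 replicate 2 (0.108) or 3 (0.111), or with no filter (0.0642).

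Of 13 tested sensors and factors of the unfolded protein response, 3 were higher, 4 lower and 6 not called (median -0.08). These counts are near the shares over all tested genes, 21.9% higher and 29.7% lower. Eif2ak3, the sensor PERK, was higher (0.89 ± 0.15, limma adjusted p = 0.00428), and so was Ern1 (0.93 ± 0.26, adjusted p = 0.0234). Creb3, a membrane-bound factor under a name with an overlap tag, was higher as well (1.21 ± 0.24, adjusted p = 0.00775). Ern1 was not called without control replicate 1 (0.1), without Pax5-Etv6 replicate 2 (0.0809) or 3 (0.0792), or with no filter (0.0612). Mbtps2, the protease that releases Atf6, fell by 1.78 (adjusted p = 0.00359). Cebpb fell by 1.28 (adjusted p = 0.0327), and was not called without either control (0.0554 and 0.183), without Pax5-Etv6 replicate 3 (0.0809), with no filter (0.0834) and with voom (0.0662). Atf4 fell by 0.47 (adjusted p = 0.0397), a call lost in 10 alternatives, among them without control replicate 2 (0.110) or any 1 Pax5-Etv6 library (0.0922 to 0.0980).

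A list of chaperone and degradation genes was chosen by function as targets of Xbp1 and Atf6. Whether each is induced by them in these cells was not tested. Of its 32 tested genes, 4 were higher, 11 lower and 17 not called (median -0.16). Of all tested genes 21.9% were higher and 29.7% lower. Os9 (1.71 ± 0.16, limma adjusted p = 0.000736), Herpud1 (1.42 ± 0.22, adjusted p = 0.00307) and Derl2 (0.99 ± 0.22, adjusted p = 0.0110) were higher. Other genes of this list that serve the disposal of misfolded ER proteins did not follow them: Edem1 fell by 1.12 (adjusted p = 0.00303) and Edem3 by 1.72 (adjusted p = 0.00290), and Syvn1, Sel1l, Edem2 and Derl1 were not called. The oxidoreductase Ero1l had 10.7, 12.1 and 10.2 TPM against 117 and 77.9 TPM (-3.01 ± 0.24, adjusted p = 0.000545).

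Of 43 tested genes for signal-peptide handling, translocation, glycosylation and export from the ER, 2 were higher, 17 lower and 24 not called. Over all tested genes 21.9% were higher and 29.7% lower. The list median was -0.55, against -0.10 over all tested genes. The oligosaccharyltransferase subunit Stt3a had 69.3, 66.7 and 64.9 TPM against 395 and 204 TPM (-2.07 ± 0.27, limma adjusted p = 0.00198). The retrieval receptor Kdelr2 fell by 1.83 (adjusted p = 0.000608) and the signal-recognition-particle subunit Srp72 fell by 1.75 (adjusted p = 0.000585). Srp14, another subunit, was higher (0.56 ± 0.14, adjusted p = 0.0150), but not without Pax5-Etv6 replicate 2 (0.0615) or 3 (0.0647). The higher level of Xbp1 in Pax5-Etv6 B-ALL thus stood beside lower values for part of the secretory genes, in libraries that differ in tissue and culture as well.

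**Figure D5:**
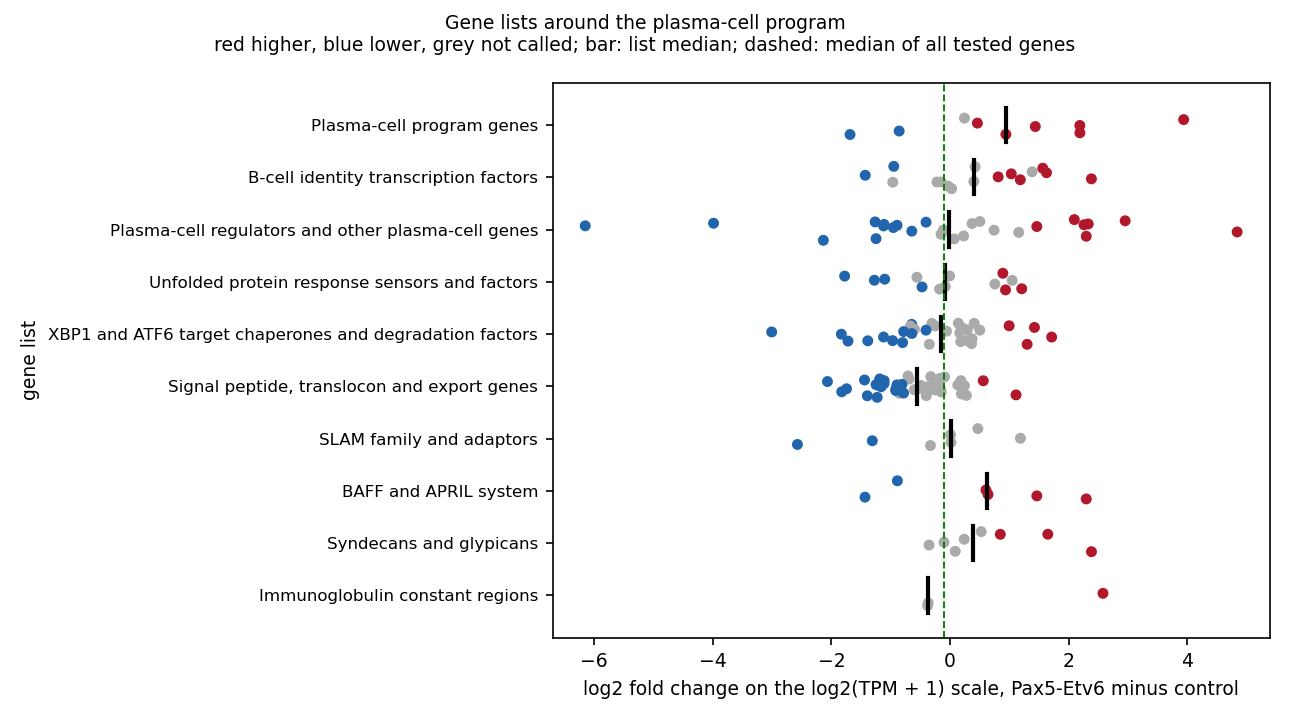
Log2 fold changes of the tested genes of each list (points, red higher, blue lower, grey not called), with the list median as a bar and the median of all tested genes, -0.10, as a dashed line. The plasma-cell program median is 0.94, and that of signal peptide, translocon and export genes is -0.55.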

How the data were processed

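The authors deposited 1 table per library with 24726 gene entries in TPM that sum to 1000000. The submitters' processing notes name HTSeq 0.5.3, DESeq2 1.4.1 and the build mm9, without their roles. No aligner is named in the sources used here, and 3539 entry names carry a tag that reads as overlap. The 2 Pax5-Etv6 chromatin immunoprecipitation samples were not analysed here.

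All 16538 entries above 0 in at least 2 libraries were whole multiples of 1 read (tolerance 1e-06), so reads were recovered as lower bounds. Libraries were grouped by genotype, with replicates numbered in accession order. Entries with at least 1 TPM in at least 2 libraries were tested with limma 3.58.1 in R 4.3.3 on log2(TPM + 1), two-sided, with a mean-variance trend, no covariates and 3 residual degrees of freedom. Fits that leave 1 control assume that it varies like the other group.

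The members, lists and rules were chosen with earlier results of these data known. Named genes were the members, up to 3 called genes per list and direction if their higher group averaged 10 TPM or more, and the 3 profiles nearest to Prdm1 and Xbp1. Irf4, Igkc, Iglc3, Ighg2c, Hspa5, Canx, Hnrnpa3, Adcy3, Alg12, Pax5, Lat, Siglech, Pacsin1, Cox6a2, Bst2, Gzma, Ncr1, Ms4a1, Cd22, Vpreb1, Igll1, Edem1, Edem2, Syvn1, Sel1l, Derl1, Cd4, Cd5, Cd6, Cd8b1, Trat1 and the Cd3 genes were named after their values were seen. Promoters are from RefSeq (GRCm38.p6), and 9192 of 11805 tested entries matched a window by symbol or synonym. Intervals are exact (Clopper-Pearson, conditional on the sum of reads).

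As alternatives, the pseudocount was set to 0.1 or 5 TPM, the filter was dropped or raised to 5 TPM, and 3 other scalings were used, beside no trend, robust empirical Bayes, leaving out each library, leaving out tagged entries, and voom on recovered reads, which called 6358 genes.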

Additional observations from a re-analysis of the deposited data

How the results depend on the processing

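Over the alternatives, the 10 genes kept their direction in all 143 fits, of which 28 lost the call and 1 gained it (Tnfrsf17 with no filter, -0.42). Leaving out 1 library gave 3635 to 6305 called genes (1349 to 2974 higher, 2286 to 3331 lower), 3 to 6 called members (2 to 5 higher, 1 lower in each) and 46 to 69 called list genes, against 71. The lowest of these came without control replicate 1, which leaves 1 control. The lower members numbered 1, Slamf7, with a pseudocount of 0.1 or 5 TPM, a filter of 5 TPM, rescaling without the highest genes, robust empirical Bayes and voom. Igkc, not called, ran from -0.967 without Pax5-Etv6 replicate 1, where it was called, to 0.062 without replicate 2. The cause was not tested. The median of all genes, -0.10, ran from -0.146 to 0.006 over the alternatives, and the highest was with voom. No paired analysis was possible because the replicate numbers follow accession order and pair no samples. Depth limits Tnfrsf17, Fkbp11 and Igj, which have 10 or fewer reads in at least 1 library.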
